A study of Mus musculus with 8 samples.

Results

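The difference described here is that between the response of T follicular helper (Tfh) cells and the response of other activated helper T cells (non-Tfh) to extra Bach2. For each gene, the log2 change from empty vector to Bach2 vector in non-Tfh cells was subtracted from the same change in Tfh cells, so a positive value means a higher, or less negative, Bach2 effect in Tfh cells. All 8 libraries of the series entered this contrast, as 4 groups of 2, and 11475 of the 39179 genes in the files had enough counts to be tested. All groups held CD4 T cells with 1 transgenic receptor from Smarta mice crossed to CreERT2 mice, transduced with a retrovirus and placed in C57BL/6 hosts, which keep their own lymphocytes. The hosts were immunized with nitrophenol and the receptor's peptide on mouse serum albumin, and tamoxifen was given on day 5 to every group, empty vector included. Cells were taken 18 hours later, on day 6, from inguinal lymph nodes that were pooled, and sorted as Thy-1.1+ and CD44hi with CXCR5 and PD-1 present (Tfh) or absent (non-Tfh). The 4 groups were therefore Tfh with empty vector, Tfh with Bach2 vector, non-Tfh with empty vector and non-Tfh with Bach2 vector. The ages of the mice and the vector's promoter were not given in the sources used here.

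Tfh cells stay at the border of and inside B cell follicles, guided by the chemokine receptor CXCR5, and help B cells through CD40 ligand, IL-21 and cell contact, under control of the transcription factor Bcl6. Bach2 is a transcription repressor that pairs with small Maf proteins at sites that overlap those of AP-1 factors, and is known to hold back effector genes and to keep T cells in a resting or memory-like state. Helper T cells divide quickly in the days after immunization, so genes of DNA replication and mitosis make up a visible share of their RNA.

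Library totals ran from 7862879 to 9889859 counts, and levels are given as CPM (counts scaled to library size). The sort genes followed the labels. Cxcr5 measured 577 to 815 CPM in the 4 Tfh libraries and 17.4 to 28.3 CPM in the 4 non-Tfh libraries. A list of 6 CD4 T cell markers summed to between 9870 and 14130 CPM in every group. B cell markers (8 genes) summed to 2.05 to 14.1 CPM, monocyte and macrophage markers (6) to 3.61 to 8.33 CPM, and neutrophil markers (4) to 0 to 1.52 CPM. Natural killer markers (5) summed to 64.0 to 116.7 CPM, and plasma cell markers (5) to 208.1 to 295.5 CPM, mostly Xbp1 and Irf4. Stroma markers (5) summed to 176.2 to 280.9 CPM, mostly Pecam1, and CD8 T cell markers (2) to 13.3 to 20.4 CPM, mostly Cd8b1. The monocyte gene Fcgr1, the neutrophil genes S100a8 and S100a9, and the natural killer genes Ncr1 and Klra8 had no count in any library. The labels do not state that the replicates of a group came from separate mice or cultures, so each p-value below measures the spread between these samples. In such bulk libraries, fewer cells of a kind and less RNA per cell cannot be told apart.

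No gene passed the threshold for a different Bach2 effect in Tfh and non-Tfh cells (0 of 11475, 0%, adjusted p below 0.05, edgeR's quasi-likelihood test, Benjamini-Hochberg). At an unadjusted p below 0.05 there were 539 genes, or 4.7% of those tested, 251 with a positive and 288 with a negative difference. The smallest adjusted p was 0.131, shared by Tigit and B4galnt4, and 4 genes lay under 0.2. With the same filter, DESeq2 called 4 genes (Tigit, Lag3, B4galnt4 and Tnfrsf26, with 336 at an unadjusted p below 0.05) and limma-voom called 0 (523 at an unadjusted p below 0.05). Without any filter on low counts, edgeR called 37 of 19254 genes, 22 positive and 15 negative.

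The precision of the contrast sets what these counts can say. The median standard error of a gene's difference was 0.22 on the log2 scale, and the median half-width of its 95% interval was 0.48, or 0.32 for the 4493 genes with a mean of at least 50 CPM. For 4845 genes (42.2%) the whole interval lay within a 1.5-fold difference between the cell types in either direction. For the other genes a difference of 1.5-fold or more was inside the interval, so the missed threshold does not show that their effects were alike. Differences above 1 in size on the log2 scale were found in 523 genes, of which 469 had a mean under 5 CPM and 4 a mean of at least 50 CPM.

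Within each cell type, 196 genes changed with Bach2 in Tfh cells (63 rose and 133 fell, 1.71% of genes tested) and 100 in non-Tfh cells (29 rose and 71 fell, 0.871%). Genes called in both numbered 28, which is 14.3% of the Tfh list and 28.0% of the non-Tfh list, and all 28 had the same sign. Of the 196 Tfh genes, 190 had the same sign in non-Tfh cells, and of the 100 non-Tfh genes, 92 had the same sign in Tfh cells, against 65.4% of all genes tested. The 133 genes that fell in Tfh cells had a median log2 effect of -0.74 there and -0.21 in non-Tfh cells. The 71 genes that fell in non-Tfh cells had a median of -0.81 there and -0.42 in Tfh cells. Each list was chosen in the cell type named first, so the smaller median in the other follows from that choice in part and carries no test. These counts leaned on single libraries: the Tfh count was 21 without replicate 2 of Tfh with empty vector and 35 without replicate 2 of Tfh with Bach2 vector, and the non-Tfh count was 25 and 17 without replicate 1 or 2 of non-Tfh with empty vector and 43 without replicate 2 of non-Tfh with Bach2 vector.

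**Figure D1:**
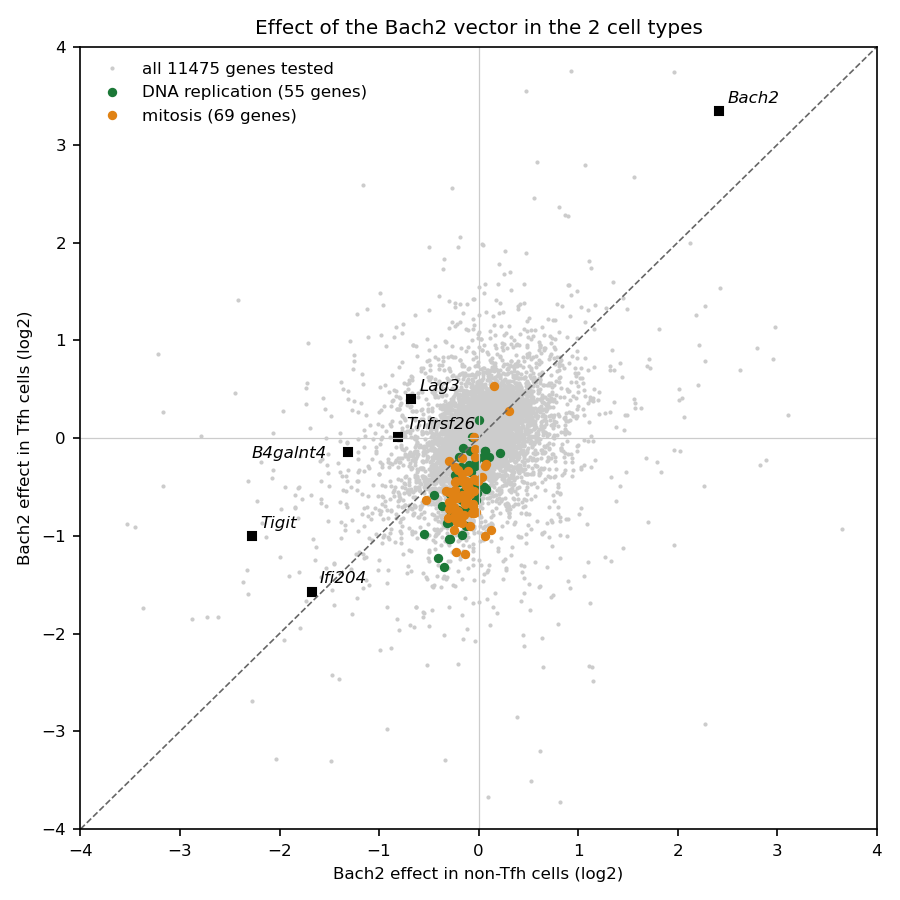
Log2 effect of the Bach2 vector in non-Tfh cells (x axis) and in Tfh cells (y axis) for the 11475 genes tested, with 18 genes beyond the axis limit of 4 not drawn. The dashed line marks equal effects. DNA replication genes (green) and mitosis genes (orange) lie mostly below the line, and Tigit, Lag3, B4galnt4 and Tnfrsf26 lie above it.

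Ifi204, an interferon-induced DNA sensor of the p200 family, is an example of a gene that fell in both cell types by values close to each other. It measured 83.6 and 120.3 CPM in Tfh cells with empty vector and 37.5 and 30.7 CPM with Bach2, and 132.8 and 160.6 CPM in non-Tfh cells with empty vector and 45.0 and 46.8 CPM with Bach2. In each cell type both Bach2 libraries lay below both empty vector libraries. The log2 effects were -1.57 (adjusted p = 0.00386) in Tfh and -1.68 (adjusted p = 0.00158) in non-Tfh cells, and their difference was 0.10 with a 95% interval from -0.44 to 0.64. Ifi204 has close copies in the genome, and the treatment of reads shared by them was not given in the sources used here. Pik3ip1, an inhibitor of phosphoinositide 3-kinase, rose in non-Tfh cells (0.76, adjusted p = 0.0128) and had a value of 0.54 in Tfh cells (adjusted p = 0.0558), a difference of -0.21 with an interval from -0.61 to 0.18.

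Bach2 itself (chromosome 4, 32238804 to 32586108, plus strand, GRCm38) served as the check of the labels. It measured 11.2 and 14.0 CPM in Tfh cells with empty vector and 120.9 and 134.8 CPM with the Bach2 vector. In non-Tfh cells it measured 24.9 and 28.9 CPM with empty vector and 130.5 and 157.5 CPM with the vector. Bach2 libraries lay above all empty vector libraries, the cell types overlapped under the vector, and they did not overlap under the empty vector, where Tfh cells were lower. The log2 effects, 3.35 in Tfh and 2.42 in non-Tfh cells, differed by 0.93 (SE 0.1996, unadjusted p = 0.000391, adjusted p = 0.408). On the additive scale that order was absent: the difference between the CPM gained was -1.93 CPM (Tfh minus non-Tfh, SE 15.4). The difference on the log scale sat beside unlike starting levels, with gains of 115 CPM in Tfh and 117 CPM in non-Tfh cells. Vector and endogenous transcripts share these counts, and a gene on the other strand, Bach2os, overlaps Bach2, so its reads cannot be separated.

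**Figure D2:**
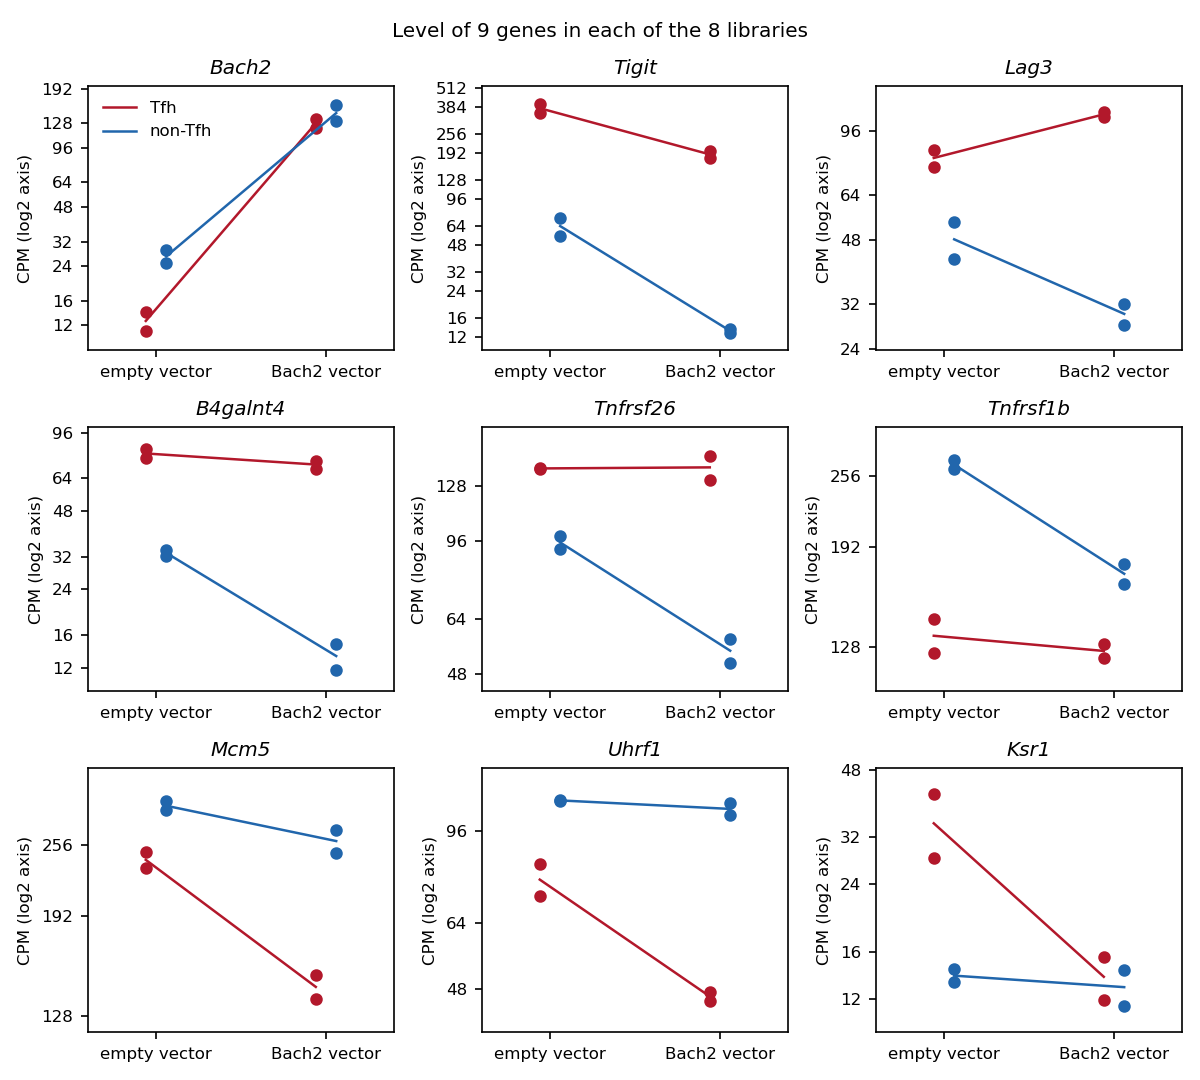
CPM (log2 axis) of 9 genes in each of the 8 libraries, with empty vector on the left and Bach2 vector on the right of each panel, points for libraries and lines through the group means. Lines of unequal slope mark unequal effects: Tigit, B4galnt4, Tnfrsf26 and Tnfrsf1b slope down more steeply in non-Tfh cells (blue), Lag3 slopes in opposite directions, and Mcm5, Uhrf1 and Ksr1 slope down more steeply in Tfh cells (red).

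The 24 genes of smallest unadjusted p, named by rule, split evenly, with 12 positive and 12 negative differences of 0.53 to 1.27 in size. None passed the threshold. In all 24 the log2 ratios of every Bach2 library to every empty vector library of its cell type did not overlap between the cell types, a measure that shares its libraries with the p-values and that held with Tfh above for 7.79% and with Tfh below for 8.64% of all genes tested. In 6 of the 24 all ratios were above 0 in 1 cell type and below 0 in the other, as in 3.35% of all genes tested. Calls within a cell type were less firm for some genes than for others: of the named genes, 9 of 33 calls in Tfh and 7 of 28 in non-Tfh cells passed in all 8 refits that left out 1 library. Of the 8 refits, 4 left out a library of the other cell type and kept all 4 libraries of the call's own cell type. A gene that passed in 4 or fewer may therefore have failed whenever 1 of its own libraries was left out. The genes that kept every call were Tigit, Bach2 and Ifi204 in both cell types, Mcm5, Ccna2, Foxp1, Actn1, 6430562O15Rik and ENSMUSG00000091747 in Tfh cells, and B4galnt4, Tnfrsf26, Gpr15 and Ahr in non-Tfh cells. Among other calls, Uhrf1 and Idi1 in Tfh and Tnfrsf1b and Tnfrsf9 in non-Tfh cells passed in 7 of 8 refits, Chaf1a, Kpna2, Mcm10, Aurkb and Ksr1 in 6, Lag3, Prdm1, Il12rb1, Fam20a, Pik3ip1 and, in Tfh cells, Ttk and Tnfrsf9 in 5, Cemip2, Atp2b1, Slc37a3 and Bcl2l11 in 4, Rora and Maf in 3, and Ercc6l and Gata3 in 2.

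**Figure D3:**
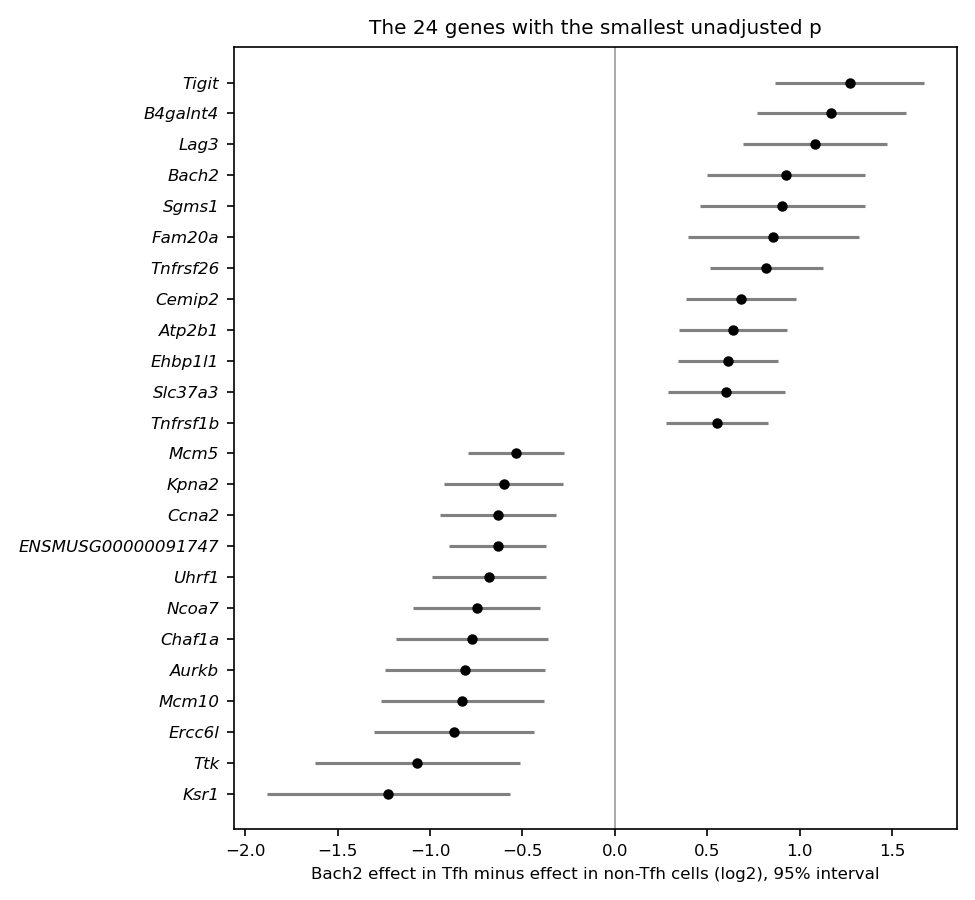
Difference of the Bach2 effect (Tfh minus non-Tfh, log2) for the 24 genes of smallest unadjusted p, with 95% intervals from the edgeR fit over 8 libraries. The intervals are for single genes and are not adjusted for the 11475 genes tested.

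Among surface receptors, Tigit had the smallest p. It encodes an inhibitory receptor that competes with CD226 for the ligand CD155, and lies on chromosome 16 (43648867 to 43664146, minus strand). It measured 403 and 351 CPM in Tfh cells with empty vector and 197.8 and 178.8 CPM with Bach2. In non-Tfh cells it measured 72.8 and 55.3 CPM with empty vector and 12.9 and 13.6 CPM with Bach2. The 4 groups did not overlap, and Bach2 left 49.9% of the empty vector level in Tfh cells and 20.6% in non-Tfh cells. Tigit fell in both (log2 effects -1.003, adjusted p = 0.00183, and -2.27, adjusted p = 4.17e-06), and the difference of 1.27 (SE 0.187, 95% interval 0.87 to 1.67) had an adjusted p of 0.131. In CPM the loss was larger in Tfh cells, a difference of -138 CPM (SE 29.1), so the direction of the difference depends on the scale.

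Lag3, an inhibitory receptor that binds MHC class II (chromosome 6, 124904361 to 124911705, minus strand), had effects of opposite sign. It measured 76.5 and 85.3 CPM in Tfh cells with empty vector and 104.9 and 108.6 CPM with Bach2, and in non-Tfh cells 42.5 and 54.0 CPM with empty vector and 28.0 and 32.1 CPM with Bach2. Within each cell type the vector groups did not overlap. Lag3 fell in non-Tfh cells (-0.68, adjusted p = 0.0281), its value in Tfh cells was 0.40 (adjusted p = 0.122), and the difference was 1.08 (SE 0.182, adjusted p = 0.141). Over the whole list of inhibitory receptors, 17 were tested, 0 passed for the difference, 13 had a positive value and the median was 0.16. Of all 11475 genes tested, 5645 had a positive value, with a median of -0.01. Pdcd1, the gene of the sort marker PD-1, had a difference of 0.54 with an interval from -0.65 to 1.72, and its replicates were far apart (659 and 454 CPM in Tfh cells with empty vector).

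B4galnt4, a glycosyltransferase of the Golgi (chromosome 7, 141061104 to 141072400, plus strand), measured 76.4 and 83.1 CPM in Tfh cells with empty vector and 69.8 and 74.9 CPM with Bach2. In non-Tfh cells it measured 32.3 and 33.9 CPM with empty vector and 11.8 and 14.8 CPM with Bach2. The level remaining was 90.6% in Tfh and 40.1% in non-Tfh cells. B4galnt4 fell in non-Tfh cells (-1.31, adjusted p = 0.000479) and had a value of -0.14 in Tfh cells (adjusted p = 0.641), with a difference of 1.17 (SE 0.188, adjusted p = 0.131).

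A pair of tumour necrosis factor receptor genes also had positive differences. Tnfrsf26, a decoy-type receptor of mice, measured 140.3 and 139.6 CPM in Tfh cells with empty vector and 131.8 and 149.5 CPM with Bach2, against 98.4 and 91.9 CPM and then 50.9 and 57.4 CPM in non-Tfh cells. It fell in non-Tfh cells (-0.81, adjusted p = 0.00192), and its Tfh libraries overlapped between vectors (0.01, adjusted p = 0.981). The difference was 0.82 (SE 0.142, adjusted p = 0.141), and a transcript on the other strand, E230032D23Rik, overlaps its exons. Tnfrsf1b, which encodes TNF receptor 2, was higher in non-Tfh cells to begin with, at 273 and 264 CPM with empty vector and 165.5 and 179.1 CPM with Bach2, against 124.7 and 143.1 CPM and then 122.3 and 129.5 CPM in Tfh cells. It fell in non-Tfh cells (-0.64, adjusted p = 0.00416), and its difference was 0.55 (SE 0.129, adjusted p = 0.547).

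Values of the opposite kind were seen for Ncoa7, a gene with a domain shared by oxidation resistance proteins. It measured 88.4 and 87.1 CPM in Tfh cells with empty vector and 66.5 and 71.9 CPM with Bach2, and 102.0 and 90.4 CPM and then 140.6 and 114.3 CPM in non-Tfh cells. All ratios were below 0 in Tfh and above 0 in non-Tfh cells, neither effect passed the threshold (-0.34 and 0.41), and the difference was -0.75 (SE 0.160, adjusted p = 0.408). Ksr1 encodes a scaffold protein for Raf and MEK and measured 28.1 and 41.4 CPM in Tfh cells with empty vector and 15.5 and 11.96 CPM with Bach2, near the 11.5 to 14.4 CPM of the 4 non-Tfh libraries. It fell in Tfh cells (-1.33, adjusted p = 0.0099), had a value of -0.10 in non-Tfh cells, and differed by -1.23 (SE 0.306, adjusted p = 0.657).

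The other positive genes among the 24 were Cemip2, Ehbp1l1, Atp2b1, Sgms1, Slc37a3 and Fam20a, with differences from 0.60 to 0.91. Cemip2, a hyaluronidase of the cell surface, fell in non-Tfh cells (-0.49, adjusted p = 0.0311) with 87.7 and 91.8 CPM before and 60.8 and 67.1 CPM after, while its Tfh libraries went from 81.8 and 82.4 to 95.1 and 92.9 CPM (0.20, adjusted p = 0.348). Atp2b1, a plasma membrane calcium pump, and Slc37a3, a solute carrier, also fell in non-Tfh cells (-0.47 and -0.56, adjusted p = 0.0341 and 0.0215) and had values of 0.17 and 0.05 in Tfh cells. The sole gene among the 24 without a symbol, ENSMUSG00000091747, fell in Tfh cells (-0.79) and had a difference of -0.63.

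Genes of DNA replication had the most negative median of the 23 lists. The list held 55 genes, all tested. In Tfh cells 24 of the 55 fell and none rose, with a median log2 effect of -0.56, and in non-Tfh cells 0 passed in either direction, with a median of -0.15. For the difference 0 passed the threshold, 30 had an unadjusted p below 0.05 and all 30 were negative, 52 of 55 had a negative value, and the median was -0.42, against -0.01 for all genes tested. Of all 11475 genes tested, 133 fell in Tfh and 71 in non-Tfh cells. For the difference, 539 of all genes (4.7%) had an unadjusted p below 0.05, 288 of them negative, and 5830 had a negative value. In 36 of 55 the replicate ratios lay wholly below in Tfh cells, against 8.64% of all genes. The mitosis list was alike, with 69 genes tested: 31 fell in Tfh cells (median -0.60), 0 passed in non-Tfh cells (median -0.14), and for the difference 0 passed, 34 had an unadjusted p below 0.05, all negative, 66 had a negative value and the median was -0.42. These members were put together with earlier results in view, and genes that vary with cell division move together from library to library, so they are not separate observations.

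The pattern rested in part on replicate 2 of Tfh with empty vector, which had the highest mean for both lists among the Tfh libraries. Averaged over the DNA replication list, mean log2(CPM + 0.5) was 5.78 and 5.94 in Tfh cells with empty vector and 5.36 and 5.28 with Bach2, and in non-Tfh cells 6.02 and 6.08 with empty vector and 5.97 and 5.85 with Bach2. For mitosis the values were 5.85 and 6.17, then 5.42 and 5.48 in Tfh cells, and 5.94 and 6.13, then 5.95 and 5.85 in non-Tfh cells. Both Tfh libraries with Bach2 lay below the other 6 libraries for each list, while the vector groups of non-Tfh cells overlapped for mitosis. The difference between the effects on these means was -0.39 (SE 0.109) for DNA replication and -0.42 (SE 0.194) for mitosis, with no test given. Without that replicate 2, the median differences were -0.32 (DNA replication) and -0.26 (mitosis). They were -0.37 and -0.48 without replicate 2 of Tfh with Bach2, and -0.50 and -0.37 without replicate 1 of that group. Fewer members were called as falling in Tfh cells in these refits, and so were fewer of all genes tested. Over all refits that left out 1 library, the medians ran from -0.50 to -0.32 for DNA replication and from -0.57 to -0.26 for mitosis. Negative values remained the majority in every such refit, between 50 and 52 of 55 and between 60 and 67 of 69.

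**Figure D4:**
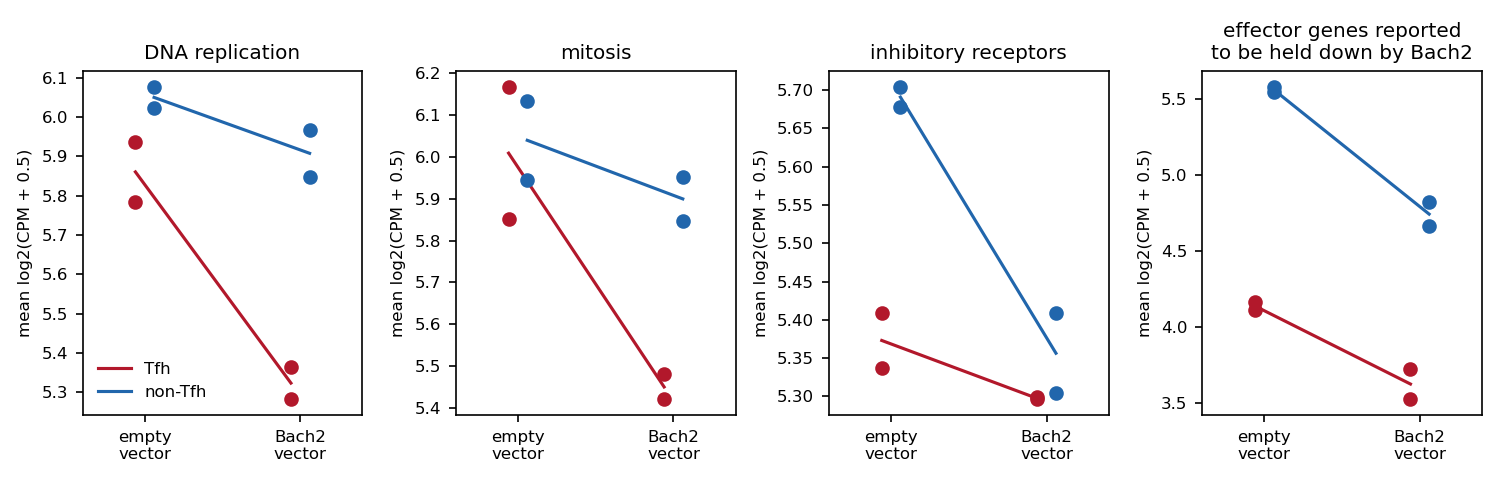
Mean log2(CPM + 0.5) over the tested members of 4 gene lists in each library, with points for libraries and lines through the group means, and with axes that do not start at 0. DNA replication and mitosis lie lowest in Tfh cells with Bach2, and the effector list and the inhibitory receptors decline more steeply in non-Tfh cells.

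Mcm5, a subunit of the MCM helicase that unwinds DNA at replication origins (chromosome 8, 75109569 to 75128439, plus strand), measured 233 and 249 CPM in Tfh cells with empty vector and 150.8 and 137.1 CPM with Bach2. In non-Tfh cells it measured 305 and 294 CPM with empty vector and 271 and 248 CPM with Bach2. The vector groups did not overlap in either cell type, and the level remaining was 59.8% in Tfh and 86.7% in non-Tfh cells. Mcm5 fell in Tfh cells (-0.74, adjusted p = 0.00183), had a value of -0.21 in non-Tfh cells (adjusted p = 0.411), and differed by -0.53 (SE 0.122, unadjusted p = 0.000626, adjusted p = 0.547).

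Uhrf1, which brings the maintenance methyltransferase to newly copied DNA, measured 72.1 and 82.9 CPM in Tfh cells with empty vector and 45.7 and 47.3 CPM with Bach2. Its non-Tfh libraries held 109.8 and 109.3 CPM with empty vector and 108.4 and 102.8 CPM with Bach2. Tfh libraries with Bach2 were the lowest of the 8. Uhrf1 fell in Tfh cells (-0.73, adjusted p = 0.00571), had a value of -0.05 in non-Tfh cells, and differed by -0.68 (SE 0.144, adjusted p = 0.408). Chaf1a, the large subunit of the chromatin assembly factor behind the replication fork, and Mcm10, an origin firing factor, fell in Tfh cells as well (-0.90 and -0.995) and differed by -0.77 and -0.83.

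Of the mitosis list, Ccna2, the cyclin of S phase and mitotic entry, had the smallest p. It measured 137.7 and 172.6 CPM in Tfh cells with empty vector and 85.6 and 93.5 CPM with Bach2, against 189.7 and 194.8 CPM and then 173.5 and 170.8 CPM in non-Tfh cells. Ccna2 fell in Tfh cells (-0.79, adjusted p = 0.00386) and differed by -0.63 (SE 0.147, adjusted p = 0.547), and Exosc9 overlaps it on the other strand. Ttk, a kinase of the spindle checkpoint, measured 19.7 and 23.3 CPM, then 10.7 and 11.6 CPM in Tfh cells, and 16.8 and 22.3 CPM, then 21.9 and 20.8 CPM in non-Tfh cells. The non-Tfh libraries of Ttk overlapped between vectors, and it fell in Tfh cells (-0.94, adjusted p = 0.0227) with a difference of -1.07 (SE 0.259, adjusted p = 0.657). Aurkb, the kinase of the chromosomal passenger complex, fell in Tfh cells too (-0.90) and differed by -0.81. Outside both lists, Kpna2, an importin, and Ercc6l, a DNA translocase of mitotic chromosomes, fell in Tfh cells (-0.64 and -0.67) and differed by -0.60 and -0.87.

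Promoters of cell cycle genes are known to carry E2F sites in genes of the G1 to S step and the cell cycle homology region (CHR) in genes of mitosis, so windows of these genes were searched for such letters, together with the AP-1 letters that Bach2 sites overlap. The windows came from RefSeq (GRCm38.p6), with 250 bases before and 50 bases after a gene's start, and 8721 tested genes had at least 1 window. Matches were counted on both strands to TTTCCCGC, TTTGGCGC, TTTCGCGC or TTTGCCGC (E2F), TTTGAA (CHR) and TGACTCA (AP-1). The 4 windows below are those of Mcm5 and Uhrf1, as replication genes with E2F letters, of Kpna2, a leading gene with CHR letters that is in neither list, and of Tigit, as the leading gene of the opposite direction. Uhrf1 has a second window at another start (chr17:56303087-56303336), which holds no match. That window spans the GENCODE M21 start of the gene (56303321), while the printed window lies further downstream, inside the gene. The single windows of Chaf1a and Mcm10 hold no match either. For Mcm5 and Tigit the GENCODE M21 starts lie further downstream (75109569 and 43664146), so the start used here is less sure. Only the 250 bases before the start are printed, 5′ to 3′ on the gene's strand, with matches in capitals.
Mcm5, chr8:75109259-75109508, plus strand: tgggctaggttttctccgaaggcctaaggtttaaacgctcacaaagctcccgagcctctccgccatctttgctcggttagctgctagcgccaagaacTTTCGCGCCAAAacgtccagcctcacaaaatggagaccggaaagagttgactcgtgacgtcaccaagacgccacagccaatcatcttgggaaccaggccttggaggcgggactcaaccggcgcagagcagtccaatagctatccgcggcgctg
Uhrf1, chr17:56304063-56304312, plus strand: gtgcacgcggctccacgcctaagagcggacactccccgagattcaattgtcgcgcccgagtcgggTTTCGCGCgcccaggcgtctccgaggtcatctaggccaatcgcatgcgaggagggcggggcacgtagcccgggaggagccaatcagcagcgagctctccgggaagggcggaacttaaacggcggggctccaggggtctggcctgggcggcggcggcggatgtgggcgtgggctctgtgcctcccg
Kpna2, chr11:106999526-106999775, minus strand: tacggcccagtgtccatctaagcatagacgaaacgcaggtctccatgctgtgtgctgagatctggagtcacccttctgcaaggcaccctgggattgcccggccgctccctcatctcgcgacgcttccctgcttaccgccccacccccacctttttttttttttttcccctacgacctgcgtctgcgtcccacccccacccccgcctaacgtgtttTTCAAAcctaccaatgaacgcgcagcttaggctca
Tigit, chr16:43664185-43664434, minus strand: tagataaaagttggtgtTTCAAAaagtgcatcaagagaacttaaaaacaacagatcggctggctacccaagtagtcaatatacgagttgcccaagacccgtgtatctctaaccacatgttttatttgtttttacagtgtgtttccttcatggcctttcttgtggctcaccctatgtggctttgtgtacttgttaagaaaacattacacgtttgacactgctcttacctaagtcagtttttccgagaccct
In the window of Mcm5, 2 E2F matches on opposite strands overlap each other, Uhrf1 holds 1 E2F match, and Kpna2 holds 1 CHR match near its start. Tigit holds 1 CHR match far from its start and no AP-1 letters in this window, which says nothing of sites elsewhere. E2F letters were found in 20 of 44 DNA replication genes with a window (45.5%) and in 5 of 58 mitosis genes (8.62%), against 4.97% of tested genes and 2.27% of all 32851 windows. CHR letters were found in 41 of 58 genes of mitosis (70.7%) and 7 of 44 of DNA replication (15.9%), against 14.3% of tested genes and 17.9% of all windows. AP-1 letters were found in 1 of 44 and 0 of 58, against 4.13% of tested genes and 5.20% of all windows. Among the leading 24 genes, AP-1 letters were found in 1 of 9 positive genes with a window (Sgms1, 11.1%) and 1 of 8 negative ones (Ksr1, 12.5%), each in 1 of several windows of the gene. A match is a run of letters and not a measured binding site.

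Effector genes that other work reports to be held down by Bach2 were described from a list of 32 tested genes, and had the highest median difference of the 23 lists, 0.29. The members of this list, too, were chosen with earlier results of these data known. In non-Tfh cells 12 of the 32 fell and none rose (median -0.73), and in Tfh cells 4 fell and 1 rose (median -0.52), where 71 and 133 of the 11475 genes tested fell. For the difference 0 passed the threshold, 8 had an unadjusted p below 0.05, all positive, against 4.7% of all genes tested, and 23 of 32 had a positive value, against 5645 of 11475. The median ran from 0.08 without replicate 2 of Tfh with Bach2 to 0.45 without replicate 1 of that group. Fewer members fell in Tfh cells without replicate 2 of Tfh with empty vector. In non-Tfh cells fewer fell without replicate 1 or 2 of non-Tfh with empty vector. Fewer of all genes tested fell in the same cell type in each of these refits. Starting levels differed widely between the cell types in this list, and 27 of the 32 genes averaged at least 1 CPM in both. Over those 27 genes the median difference was 0.22.

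Ahr, the aryl hydrocarbon receptor, measured 18.7 and 19.9 CPM in Tfh cells with empty vector and 12.3 and 14.3 CPM with Bach2, and 73.6 and 73.1 CPM and then 33.0 and 25.3 CPM in non-Tfh cells. It fell in non-Tfh cells (-1.33, adjusted p = 0.000479), had a value of -0.54 in Tfh cells (adjusted p = 0.122), and differed by 0.79 (SE 0.222, unadjusted p = 0.00302, adjusted p = 0.657). The intestinal homing receptor gene Gpr15 was mostly a non-Tfh transcript, with 83.3 and 81.5 CPM before and 32.9 and 25.2 CPM after Bach2, against 4.71 to 8.83 CPM in the 4 Tfh libraries. Gpr15 fell in non-Tfh cells (-1.51, adjusted p = 0.000479), and its difference was 1.02 (SE 0.281, adjusted p = 0.657). Prdm1, which encodes Blimp-1, an antagonist of Bcl6, measured 29.7 and 27.4 CPM, then 10.04 and 14.5 CPM in non-Tfh cells, and 1.69 to 3.04 CPM in the 4 Tfh libraries. It fell in non-Tfh cells (-1.21, adjusted p = 0.0212), and at the low Tfh level its difference of 1.07 had an interval from 0.15 to 1.99.

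Gata3, the lineage factor of Th2 cells, was the member that rose in Tfh cells, from 84.6 and 76.2 CPM to 118.1 and 101.0 CPM (0.45, adjusted p = 0.0465). Its non-Tfh libraries overlapped between vectors, at 187.5 and 209.6 CPM and then 196.2 and 209.5 CPM, and the difference was 0.41 (SE 0.143, adjusted p = 0.892). Il12rb1, Rora and Maf fell in non-Tfh cells (-0.67, -1.11 and -0.52) and had values of -0.19, -0.29 and -0.19 in Tfh cells that did not pass. Tnfrsf9, the costimulatory receptor 4-1BB, fell in both (-0.60 and -0.96).

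The Tfh programme, 37 genes tested, had a median difference of 0.16, with 24 positive values (5645 of 11475 in all), 0 past the threshold and 6 at an unadjusted p below 0.05, all positive (4.7% in all). Its median effects were alike in the cell types, -0.22 in each. The lists share members, so their values are not separate. Tigit is also in the effector list and the inhibitory receptors, Lag3 in the inhibitory receptors, and Maf in the effector list. The median difference ran from 0.00 without replicate 1 of Tfh with Bach2 to 0.27 without replicate 1 of non-Tfh with Bach2. Bcl6, the defining factor of the programme, measured 159.1 and 134.6 CPM, then 119.9 and 101.6 CPM in Tfh cells, and 20.6 and 24.2 CPM, then 16.4 and 14.0 CPM in non-Tfh cells. Neither effect of Bcl6 passed (-0.41 and -0.56), and the difference was 0.15 with an interval from -0.27 to 0.58. For Cxcr5 the difference was -0.14, with an interval from -0.85 to 0.57.

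The naive and memory programme had positive median effects in both cell types (0.42 in Tfh and 0.28 in non-Tfh cells), with 9 of 31 genes that rose in Tfh and 5 in non-Tfh cells, against 63 and 29 of 11475. The list holds Bach2 itself, whose rise is set by the vector. Bach2 counts among the genes that rose in both cell types, here and in the refits below. The programme's median difference was 0.17, 0 passed and 2 (Bach2 and Foxp1) had an unadjusted p below 0.05, against 4.7% of all genes tested. The median was -0.01 without replicate 2 and 0.24 without replicate 1 of Tfh with Bach2, and 0.01 without replicate 1 of Tfh with empty vector. In Tfh cells fewer members rose without replicate 1 or 2 of the empty vector group or replicate 2 of the Bach2 group. In non-Tfh cells fewer rose in the refits of the same kind, without replicate 1 or 2 of empty vector or replicate 2 of Bach2. Fewer of all genes tested rose in each of these refits as well, except without replicate 1 of Tfh with empty vector. Foxp1, a factor of T cell quiescence, rose in Tfh cells from 129.0 and 136.7 to 193.1 and 205.3 CPM (0.59, adjusted p = 0.00571). In non-Tfh cells it went from 140.1 and 145.4 to 173.5 and 182.2 CPM (0.32, adjusted p = 0.121), so the vector groups did not overlap in either cell type, and the difference was 0.27 (SE 0.118, adjusted p = 0.998).

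In the other lists the median difference lay between -0.14 (regulatory T cell genes) and 0.11 (chemokine and migration receptors), and 0 genes passed. Cholesterol synthesis, a list of 25, had 4 genes at an unadjusted p below 0.05, all negative, against 4.7% of all genes tested. Its median was -0.06. Idi1, an isomerase of that pathway, fell in Tfh cells (-0.84, adjusted p = 0.00963), from 31.1 and 32.4 to 16.8 and 18.6 CPM, and had a value of -0.23 in non-Tfh cells, a difference of -0.61 (SE 0.178, adjusted p = 0.747). Of the respiratory chain genes, 52 of 61 had a negative value, against 5830 of 11475 of all genes tested, and the median was -0.08. Among apoptosis regulators, Bcl2l11, which encodes the death-promoting protein Bim, rose in Tfh cells (0.67, adjusted p = 0.0304), from 33.9 and 32.4 to 51.1 and 54.5 CPM. Its non-Tfh libraries overlapped between vectors (0.00), and the difference was 0.67 (SE 0.196, adjusted p = 0.776).

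**Figure D5:**
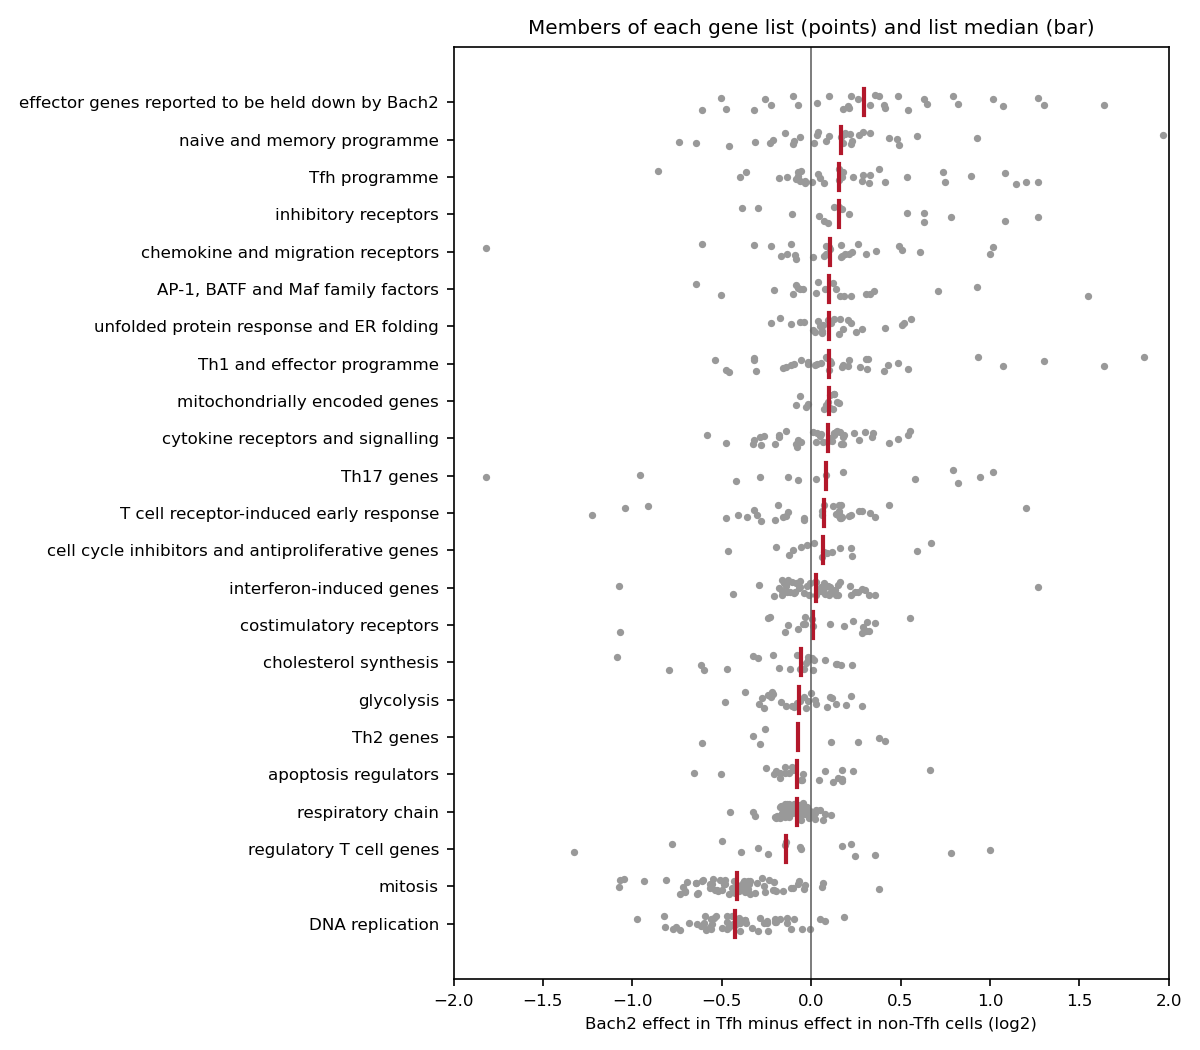
Difference of the Bach2 effect (Tfh minus non-Tfh, log2) for every tested member of 23 gene lists, 1 point per gene, with the list median as a red bar and 6 points beyond the axis limit of 2 not drawn. Medians lie near 0 except for DNA replication and mitosis (both -0.42), and the effector list (0.29) is the highest.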

How the data were processed

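RNA-seq of 8 mouse T cell libraries was used. Per the labels, RNA from sorted cells was amplified with the Smart-Seq v4 kit and read from both ends of Nextera XT libraries. This chemistry keeps no strand, so antisense overlaps cannot be told apart. Besides Bach2, Tnfrsf26 and Ccna2, genes with exons overlapped on the other strand include Cxcr5 (by Bcl9l), Gpr15 (Cpox) and Chaf1a (Ubxn6). Others are Cemip2, Sgms1, Ksr1, Ahr, Rora, Maf, Gata3, Bcl6, Idi1, Pik3ip1 and Actn1. Ncoa7 shares exon sequence with Hint3 on its own strand. The authors deposited 1 whole-number count per Ensembl gene and library. Per the submitters' processing notes, TopHat2, Bowtie2 and featureCounts were used with GRCm38/mm10. Versions, annotation and the treatment of reads with several matches were not given in the sources used here. Symbols and positions came from GENCODE M21 (GRCm38), which matched 37607 of 39179 IDs.

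The deposited counts were fitted with edgeR 4.0.16 (R 4.3.3): filterByExpr (minimum count 10, minimum total 15), TMM factors, 1 coefficient per group, 4 residual degrees of freedom and the robust quasi-likelihood test, with Benjamini-Hochberg adjustment over 11475 genes. CPM carry the TMM factors (0.985 to 1.01), apart from the marker sums. A count of 0 allows up to 3 counts, 0.303 to 0.382 CPM. Without molecular identifiers this covers counting error only. DESeq2 1.42.0 and limma 3.58.1 (voom) were alternatives, with other normalizations, filters, a replicate block and each library left out.

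Named genes were those past the threshold, filled to 24 by smallest unadjusted p, Bach2, the 3 of smallest p in each of 23 lists, the 5 largest rises and falls in each cell type, and sort and lineage genes. Not every named gene is printed. Gene lists, members and tests were chosen with earlier results of these data known. The ratio overlaps, interval counts, list means, promoter letters and refits of list counts were chosen after the results were seen. No set test was run.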

Additional observations from a re-analysis of the deposited data

How the results depend on the processing

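The 0 genes past the threshold for the difference stayed at 0 with RLE factors, library totals only, at least 1 CPM in both cell types, limma-voom and no robust prior. There were 37 without a filter on low counts (22 higher and 15 lower in Tfh cells), 4 with DESeq2 (all 4 higher) and 0 to 1 when a library was left out, the 1 gene being Trav14-3 (2.67) without replicate 1 and Tigit (1.45) without replicate 2 of non-Tfh with empty vector. The cause was not tested. The higher count ran from 0 to 1 and the lower from 0 to 0 in those refits, where the lone sample of a group is assumed to vary like the other groups.

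The Tfh count of 196 went to 736 without the filter and 326 with DESeq2, and ran from 21 to 254 when a library was left out. The non-Tfh count of 100 went to 332 and 161, and ran from 17 to 133. The 28 genes called in both cell types were 138 without the filter and 53 with DESeq2, and ran from 7 to 34 when a library was left out.

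Replicate numbers are shared across groups, but no label ties them to a mouse or day, and with 2 numbers the deviations of same-numbered libraries correlated by -0.00 to 0.24. The highest values, 0.21 and 0.24, were those between the cell types under empty vector and under Bach2 vector. Other pairs of groups ran from -0.00 to 0.13. With the replicate number as a block, the counts were 3 for the difference (Tigit, Lag3 and B4galnt4, all 3 higher in Tfh cells), 473 for Tfh and 207 for non-Tfh cells, with 80 called in both.

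Differences of CPM had the opposite sign to differences of log2 values in 737 genes (6.42%), 7 of them among the 539. Named genes with such a sign were Tigit (-138 CPM), Bach2 (-1.93), Scml4 (-44.9), 6430562O15Rik (-23.5), Tdrp (-16.0) and Bcl6 (-28.9). On the log2 scale none of the 24 leading genes changed sign in any alternative. Among named genes whose difference did not pass, Ifi204 was -0.14 without replicate 1 of Tfh with empty vector, Cxcr5 was 0.16 without replicate 2 of non-Tfh with empty vector, Il17f and Ccl3 were -0.55 and -0.72 without replicate 1 of Tfh with Bach2, Scml4 was -0.08 without replicate 2 of that group, and Tdrp, Cd4 and Cd44, close to 0, changed sign in several alternatives. Scaling moved the median of all genes by under 0.1. Depth limits genes of a few CPM most.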

Other observations

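Some values belong to no comparison above. Killer cell markers (5 genes) summed to 64.0 to 72.9 CPM in the 4 empty vector libraries and to 90.8 to 116.7 CPM in the 4 Bach2 libraries, with Ncr1 and Klra8 at 0 counts throughout. Most of that sum was Klrb1c in Tfh cells (54.4 to 93.8 CPM) and Gzma in non-Tfh cells (41.9 to 96.7 CPM). Dendritic cell markers (7 genes) summed to 2.505 to 4.80 CPM in Tfh and 10.03 to 14.9 CPM in non-Tfh libraries, with Clec9a at 0 counts. Xcr1 measured 0.10 to 1.09 CPM in Tfh and 3.38 to 9.89 CPM in non-Tfh libraries, and Itgax 0 to 0.36 and 1.53 to 4.31 CPM. Flt3, Zbtb46, Siglech and Ccr9 overlapped between the cell types. Regulatory T cell markers (4 genes) summed to 78.4 to 106.4 CPM in Tfh and 107.0 to 145.6 CPM in non-Tfh libraries, while Foxp3, the defining factor of those cells, measured 0 to 3.39 CPM. Its main members went opposite ways. Ikzf2 measured 70.7 to 100.4 CPM in Tfh and 11.1 to 15.1 CPM in non-Tfh libraries. Il2ra measured 4.55 to 9.02 CPM in Tfh and 86.1 to 130.3 CPM in non-Tfh libraries. The part of these genes in the differences was not tested.

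Tob1, an antiproliferative gene, had ratios of opposite sign: 28.2 and 31.1 CPM, then 35.05 and 43.0 CPM in Tfh cells, and 66.3 and 63.9 CPM, then 51.1 and 56.6 CPM in non-Tfh cells. Neither effect passed, and the difference was 0.67 (SE 0.187) with an adjusted p of 0.657 by edgeR's quasi-likelihood test.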
